A study of Mus musculus with 8 samples.

Results

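Ribosome biogenesis was followed through 50 mouse genes that encode RNA polymerase I subunits, nucleolar proteins, snoRNP core proteins, assembly factors of both ribosomal subunits and polyamine synthesis enzymes. A gene was represented by the probe set that the platform annotation lists with its symbol, and where there were several, by the one with the highest mean over the 8 arrays. That gave 48 of the 50 genes among the 18193 genes tested. Npm3 and Mrto4 had no probe set listed with them alone and were not analysed here. The genes were listed by function, by a rule that uses no measured value, but with earlier results of these data known, so their shared direction is not independent evidence. No filter on dim probe sets was applied.

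The arrays held 4 groups of 2. Cells were either wild-type (WT) or deficient in Ikaros (IkL/L), and of each genotype 1 group received DMSO, the vehicle, and 1 the gamma-secretase inhibitor MRK-003 (GSI; labelled as 5 mM, a dose that could not be checked) for 16 h. All groups shared the culture and the sort, while the amounts of RNA labelled are not tied to samples in the labels. Thymocytes depleted of lineage-positive cells were grown on OP9 DL1 stroma, which carries the Notch ligand Delta-like 1, and the DN3 fraction (Lin-CD44-CD25+) was sorted for RNA. The labels give no age, no number of animals and no strain other than the genotype. They do not say whether 2 arrays of a group hold separate mice or cultures, so every p-value here covers only the spread between these arrays, which could be technical. Only 2 arrays per group also limit the precision.

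A ribosome begins in the nucleolus, where RNA polymerase I transcribes the long precursor of the rRNAs. Box C/D and box H/ACA snoRNPs, which are RNA-guided enzymes, modify that precursor by methylation and by pseudouridylation, and sets of helicases, WD-repeat proteins and GTPases fold, cut and assemble it into the small and the large subunit. Genes of this pathway are known targets of MYC, which binds the E-box CACGTG, and Myc is itself a known target of Notch signalling in early T cells. Gamma-secretase cuts the activated Notch receptor and so releases its intracellular part, which acts on transcription in the nucleus. DN3 cells are precursors that need Notch signals to grow through the pre-T cell receptor checkpoint.

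Almost the whole set was lower under GSI. Averaging WT and IkL/L, 46 of the 48 genes fell and 0 rose (limma with Benjamini-Hochberg adjustment over all genes, adjusted p below 0.05), where 12.5% of all genes tested fell and 10.8% rose. The median log2 change of the 48 genes was -1.45, against -0.002 for all genes, and their middle 50% ran from -1.87 to -1.16. In 46 of the 48 genes all 4 GSI arrays lay below all 4 DMSO arrays, which was so for 12.7% of all genes. Polr1c and Rrp12 were the exceptions in both counts.

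The falls were large as well as frequent. A decrease of more than 2-fold with a call was seen in 38 of the 48 genes and in 4.46% of all genes. Of the 69 genes of the whole array that were over 4-fold lower, 9 were among the 48: Srm, Nolc1, Nop58, Polr1b, Lyar, Ddx21, Pno1, Ftsj3 and Grwd1. Ranked by their average change, 11 of the 48 were among the 100 most negative genes and 34 among the 500 most negative. The deposited values were scaled by the authors so that all arrays share nearly the same distribution, so each change is relative to the other genes of the same array. In bulk RNA, fewer cells of a type and less RNA per cell cannot be told apart.

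**Figure D1:**
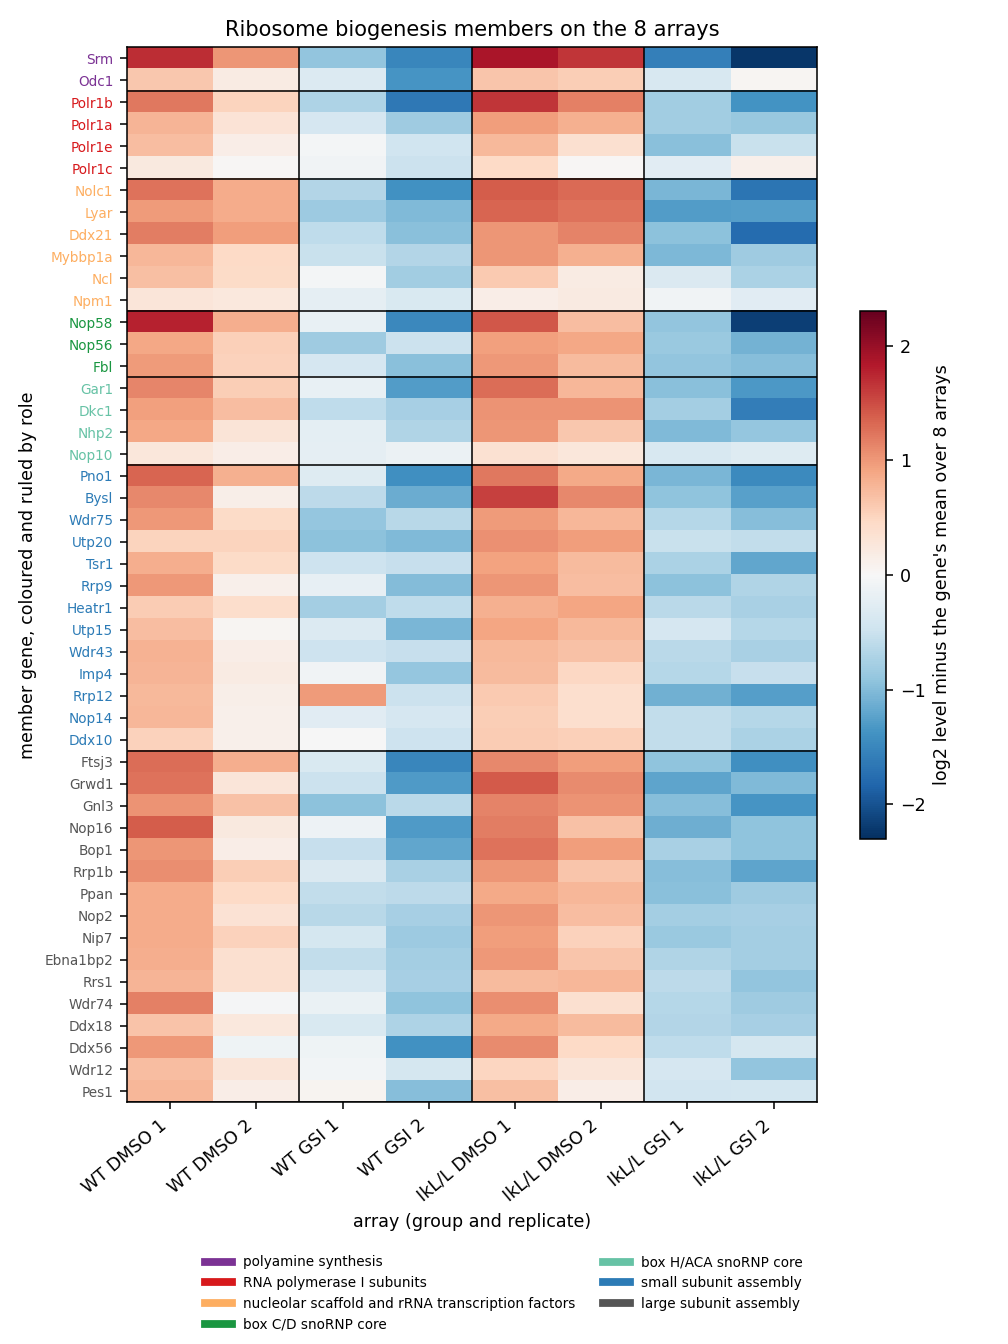
Heat map of the 48 genes (vertical axis, coloured and ruled by role) on the 8 arrays (horizontal axis), with colour giving the log2 level minus the gene's own mean over the arrays. Nearly all genes are above their mean on the 4 DMSO arrays and below it on the 4 GSI arrays. Rrp12 and Pes1 on WT GSI 1, Polr1c and Odc1 on IkL/L GSI 2, and Wdr74 and Ddx56 on WT DMSO 2 depart from this, Rrp12 by the most.

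Several measures of the samples differed between arrays, and some of them moved with treatment. The GAPDH 3' minus 5' control difference, a log2 measure that rises as labelled RNA gets shorter, was 1.71 and 2.12 under DMSO and 2.20 and 3.08 under GSI in WT, and 1.87 and 2.47 under DMSO and 3.09 and 3.03 under GSI in IkL/L. With it as a covariate, 32 of the 48 genes still fell on average (7.9% of all genes did), with a median log2 change of -1.03. The mean log2 level of 19 stromal markers, for the OP9 feeder, was 7.18 and 6.45 under DMSO and 7.86 and 6.26 under GSI in WT, and 7.43 and 6.57 under DMSO and 7.44 and 6.86 under GSI in IkL/L. This mean overlapped between treatments in both genotypes and was higher on replicate 1 than on replicate 2 in each group. With it as a covariate all 48 fell (17.2% of all genes did). The mean of 15 myeloid and dendritic markers was 5.27 and 4.99 under DMSO and 5.67 and 5.47 under GSI in WT, and 5.50 and 5.51 under DMSO and 6.69 and 6.66 under GSI in IkL/L. It was higher under GSI in both genotypes, most of all in IkL/L. There Lyz1, Lyz2, S100a8, S100a9, Cd74, H2-Aa, H2-Ab1 and H2-Eb1 were clearly higher under GSI, and Cd14 and Itgax only slightly. Mpo, Csf1r and Flt3 overlapped between treatments in IkL/L, and Itgam and Siglech were lower under GSI. The higher mean in IkL/L was thus not shared by the whole list, whose genes were named after their values were seen. The mean of 8 B cell markers was between 5.23 and 5.38 on the 4 DMSO arrays and between 5.62 and 5.99 on the 4 GSI arrays, which do not overlap. Of these genes only Vpreb1 separated the treatments over all arrays (6.57 to 6.91 under DMSO, 7.84 to 9.16 under GSI). Cd79b was higher under GSI within each genotype. Blnk and Igll1 were higher on both GSI arrays than on both DMSO arrays in IkL/L and overlapped between treatments in WT. Cd79a, Ms4a1, Ebf1 and Pax5 stayed between 3.94 and 5.33 on all arrays. The part of both lists in the results was not tested. Genes gated out by the sort (Cd4, Cd8a, Cd8b1 and Cd44) had a mean of 7.73 on IkL/L GSI 1 and between 6.04 and 6.59 on the other arrays. Markers of DN3 cells (9 of 11 measured) had means between 11.04 and 11.35 on the DMSO arrays. On the GSI arrays the means were between 10.82 and 10.98, so the treatments did not overlap. Il2ra, which encodes CD25, and Ptcra were lower on all 4 GSI arrays than on all 4 DMSO arrays. No other gene of this list was. Bcl11b was instead higher on all 4 GSI arrays (13.11 to 13.46) than on all 4 DMSO arrays (12.77 to 13.09). Dtx1, a direct Notch target, was between 11.74 and 12.09 on the DMSO arrays and between 7.04 and 7.96 on the GSI arrays. Ikzf1, which encodes Ikaros, was at 11.14 and 11.19 on the IkL/L arrays under DMSO and at 11.95 and 12.17 on those of WT. Under GSI its difference between the genotypes did not pass in limma. The probe set of Ikzf1 was not placed against the mutated stretch, so this is no check of the genotype labels if it lies elsewhere in the gene.

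The promoters of these genes were searched for the E-box, the element that MYC binds, which a minority of them held. Promoters from RefSeq (GRCm38.p6, 250 bases before to 50 after the start site) were held for 42 of the 48 genes. The palindromic E-box CACGTG, which reads the same on both strands, was present in 9 of those 42 genes (21.4%). It was present in 10.2% of the genes tested that had a promoter in the table and in 8.09% of all genes there. All 9 are printed 5' to 3' on the gene's own strand, with the E-box in capitals.
Imp4, chr1:34439683-34439738, plus strand: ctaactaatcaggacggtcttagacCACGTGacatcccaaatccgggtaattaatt
Nop2, chr6:125131798-125131853, plus strand: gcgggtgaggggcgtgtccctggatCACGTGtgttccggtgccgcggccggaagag
Pes1, chr11:3963967-3963992, plus strand: ctaggcagggCACGTGcgggaggaag
Wdr43, chr17:71616222-71616247, plus strand: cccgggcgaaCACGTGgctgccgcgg
Tsr1, chr11:74898094-74898119, plus strand: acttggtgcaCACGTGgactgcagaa
Grwd1, chr7:45830740-45830765, minus strand: gccggagtcgCACGTGtgaaaccgga
Pno1, chr11:17211540-17211562, minus strand: tacaaccacgCACGTGttcctct
Utp20, chr10:88826765-88826787, minus strand: gcactaactaCACGTGaggaaaa
Mybbp1a, chr11:72441357-72441376, plus strand: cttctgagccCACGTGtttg

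In Imp4 and Nop2 the element begins upstream of the start site, at -121 and -60. In the other 7 it begins downstream, between +3 in Pes1 and +41 in Mybbp1a. Genes with and without the element had near-equal medians: the average log2 change had a median of -1.46 in the 9 genes that have it and of -1.44 in the 33 that have a promoter without it. The 9 genes themselves ranged from -0.88 (Pes1) to -2.11 (Pno1). The related element CACGCG, read as CGCGTG on the other strand, was found in 17 of the 42 genes (40.5%) and in 16.2% of tested genes with a promoter. The core TGGGAA, read as TTCCCA on the other strand and bound by the Notch partner RBPJ, was found in 12 (28.6%) against 27.5%. These are matches of letters within the 300-base windows, and the arrays carry no measurement of binding.

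Polyamine synthesis showed the largest single change of the set. Polyamines are small cations that bind RNA and that growing cells make in quantity; Srm encodes spermidine synthase, and Odc1 encodes ornithine decarboxylase, the rate-limiting enzyme. Srm had log2 levels of 11.29 and 10.61 under DMSO and 8.68 and 8.10 under GSI in WT, and 11.47 and 11.24 under DMSO and 8.02 and 7.36 under GSI in IkL/L. The lowest DMSO array was almost 2 log2 units above the highest GSI array. Srm fell by 3.12 ± 0.23 (SE) on the log2 scale, or 8.66-fold (limma, adjusted p = 0.000213), and was number 3 from the bottom of all genes tested. Odc1 stood at 12.23 and 11.80 under DMSO and 11.31 and 10.25 under GSI in WT, and 12.25 and 12.17 under DMSO and 11.24 and 11.65 under GSI in IkL/L. Its groups came close to each other without overlapping, and it fell by 1.00 ± 0.23 (adjusted p = 0.0143). That call was lost on leaving out single arrays and with the GAPDH covariate (-0.28, adjusted p = 0.443).

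Other polyamine genes did not share a direction. Of 6 measured, 1 fell and 3 rose, with a median log2 change of 0.47. The one that fell was Azin1, whose product shields ornithine decarboxylase from its inhibitor antizyme (-1.17 ± 0.14, limma adjusted p = 0.00079). Azin2, a second antizyme inhibitor, rose by 0.50 ± 0.11 (adjusted p = 0.0151). The other 2 that rose, named after their values were seen, were Sat1, encoding the acetyltransferase that starts polyamine breakdown (0.62 ± 0.14, limma adjusted p = 0.0162), and Oaz2, an antizyme gene (0.53 ± 0.15, adjusted p = 0.0362).

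RNA polymerase I subunits split into falling and steadier genes. Polr1a and Polr1b encode the 2 largest subunits, which form the catalytic centre. Polr1b had log2 levels of 8.52 and 7.81 under DMSO and 6.60 and 5.66 under GSI in WT, and 8.95 and 8.46 under DMSO and 6.51 and 5.93 under GSI in IkL/L, with no overlap between treatments. It fell by 2.26 ± 0.27 (4.80-fold; limma, adjusted p = 0.000873). Polr1a was at 8.63 and 8.16 under DMSO and 7.46 and 7.02 under GSI in WT, and 8.81 and 8.67 under DMSO and 7.04 and 6.98 under GSI in IkL/L. It also separated the treatments completely and fell by 1.44 ± 0.16 (2.71-fold; limma, adjusted p = 0.000738).

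Polr1e, encoding a subunit specific to this polymerase, was at 8.83 and 8.26 under DMSO and 8.06 and 7.66 under GSI in WT, and 8.86 and 8.49 under DMSO and 7.15 and 7.61 under GSI in IkL/L. The lowest DMSO and the highest GSI array were both from WT and lay close together. Polr1e fell by 0.99 ± 0.20 (limma, adjusted p = 0.00825), a call that was lost with the GAPDH covariate (-0.48, adjusted p = 0.202). Polr1c encodes a subunit shared with RNA polymerase III. Its levels were 10.38 and 10.17 under DMSO and 10.07 and 9.65 under GSI in WT, and 10.61 and 10.18 under DMSO and 9.89 and 10.27 under GSI in IkL/L. The array IkL/L GSI 2 lay above replicate 2 of DMSO in both genotypes, and the change of -0.36 ± 0.16 did not pass (adjusted p = 0.163).

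Other polymerase genes fell in part. Of 12 other genes of RNA polymerase I and its factors, 3 fell and 1 rose, with a median log2 change of -0.02. The 3 were Cd3eap, the older symbol of the subunit gene Polr1g (-1.01 ± 0.13, limma adjusted p = 0.00108), Rrn3, whose product carries the polymerase to the promoter (-0.65 ± 0.13, adjusted p = 0.00743), and Ubtf, encoding the promoter-binding factor UBF (-0.54 ± 0.11, limma adjusted p = 0.00883, named after its values were seen). Taf1c, encoding a subunit of the promoter selectivity factor SL1 and also named after its values were seen, rose by 0.67 ± 0.15 (adjusted p = 0.016). Of 10 RNA polymerase III subunits 4 fell, with a median of -0.06, led by Polr3e (-1.62 ± 0.20) and Polr3g (-0.78 ± 0.13). Of 8 RNA polymerase II subunits 2 fell, with a median of -0.42: Polr2b (-0.40 ± 0.07) and Polr2g (-0.50 ± 0.12).

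**Figure D2:**
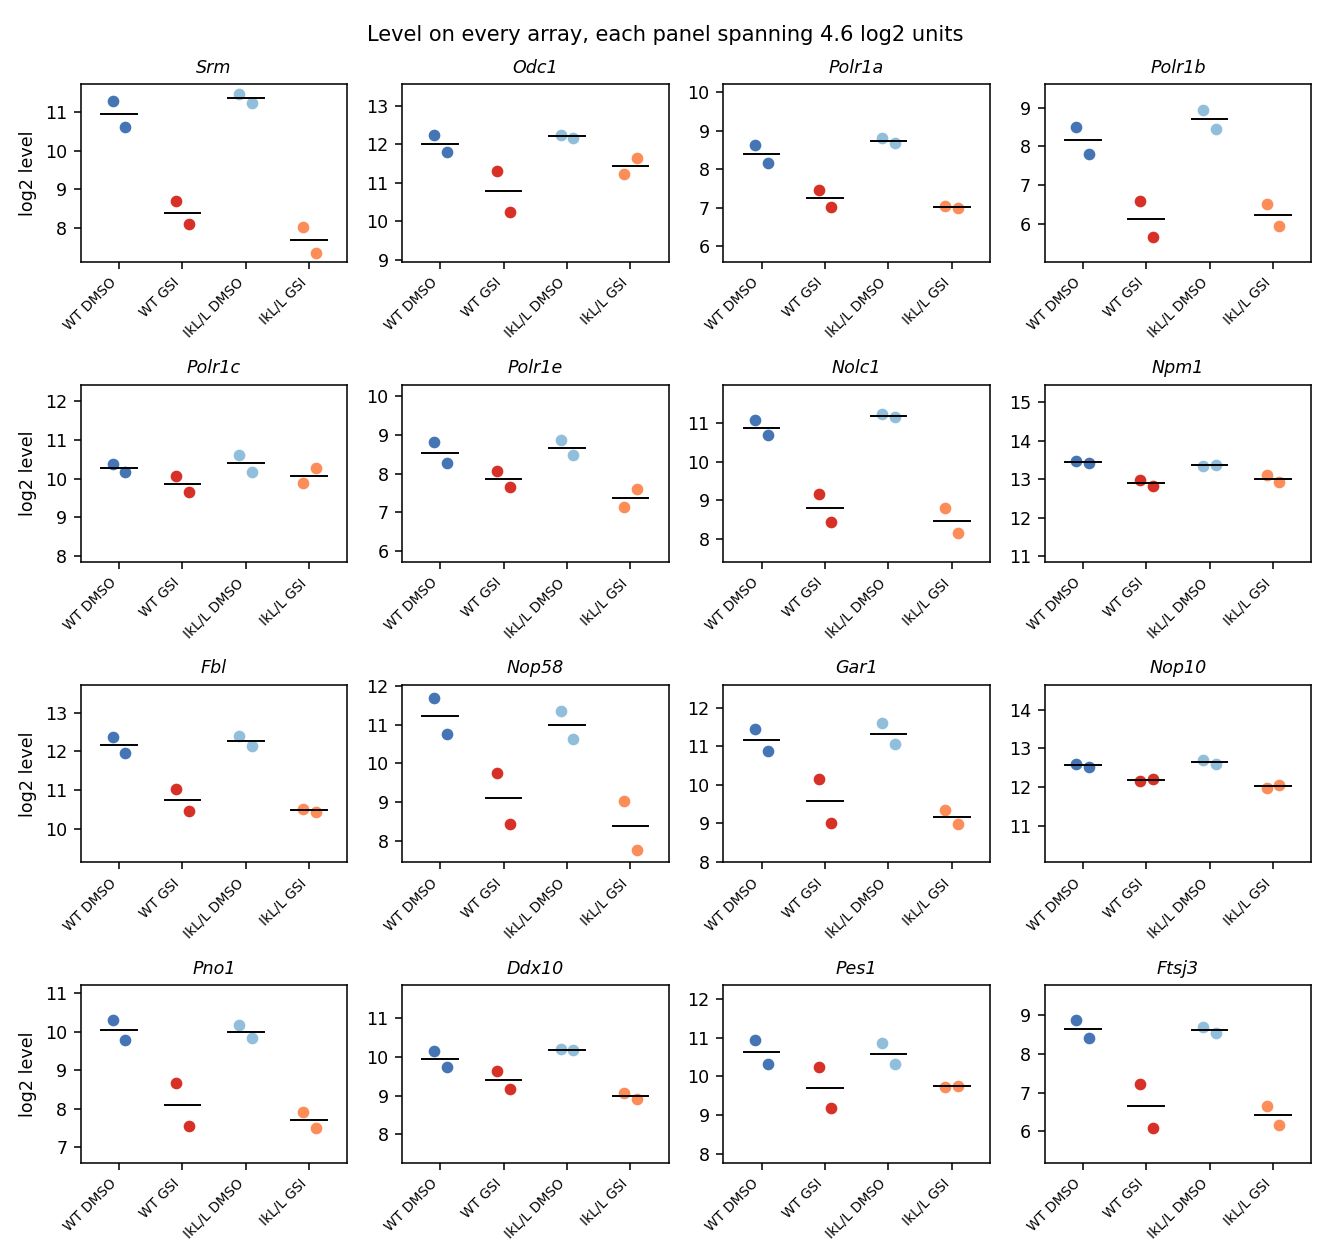
Log2 level (vertical axes, equal spans) of 16 genes in the 4 groups (horizontal axes), with 1 point per array and a bar at the group mean of 2 arrays. In Srm, Polr1b, Nolc1 and Ftsj3 the GSI points lie far below the DMSO points in both genotypes, while Npm1 and Nop10 move little and Polr1c overlaps.

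Nucleolar scaffold proteins and factors of rRNA transcription all fell (6 of 6, median log2 change -1.83). Nolc1, which encodes Nopp140, a chaperone of snoRNPs in the nucleolus, had log2 levels of 11.08 and 10.69 under DMSO and 9.16 and 8.43 under GSI in WT, and 11.23 and 11.14 under DMSO and 8.79 and 8.16 under GSI in IkL/L. Every GSI array was more than 1 log2 unit below every DMSO array, and Nolc1 fell by 2.40 ± 0.21 (5.28-fold; limma, adjusted p = 0.000319). Npm1, encoding the abundant nucleolar protein nucleophosmin, had the smallest change of the 6. It was at 13.46 and 13.43 under DMSO and 12.98 and 12.84 under GSI in WT, and 13.34 and 13.38 under DMSO and 13.11 and 12.93 under GSI in IkL/L. The treatments did not overlap and the replicates lay close together, and the change of -0.44 ± 0.07 passed (limma, adjusted p = 0.00236). A second probe set for Npm1 gave -0.97.

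The other 4 of this group included 2 genes with changes near that of Nolc1. Lyar, encoding a nucleolar zinc finger protein of early rRNA processing, fell by 2.20 ± 0.11 (limma, adjusted p = 8.18e-05). Ddx21, encoding an RNA helicase that links RNA polymerase I transcription to processing, fell by 2.14 ± 0.20. Mybbp1a, encoding a nucleolar MYB-binding protein whose E-box is printed above, fell by 1.53 ± 0.12. Ncl, encoding nucleolin, fell by 0.95 ± 0.18 (limma, adjusted p = 0.00702); its call was lost with the GAPDH covariate (-0.33, adjusted p = 0.191). Its other 4 probe sets gave values from -0.55 to -1.58.

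The box C/D snoRNP core, which carries out 2'-O-methylation of rRNA, fell in 3 of 3 genes. Nop58, encoding a core scaffold protein, was at 11.70 and 10.76 under DMSO and 9.76 and 8.44 under GSI in WT, and 11.36 and 10.64 under DMSO and 9.02 and 7.76 under GSI in IkL/L. The treatments were apart, but in each group replicate 1 was well above replicate 2. It fell by 2.37 ± 0.39 (5.17-fold; limma, adjusted p = 0.00363), and with the GAPDH covariate it was -1.20 (adjusted p = 0.0783). Fbl, encoding the methyltransferase fibrillarin, was at 12.39 and 11.95 under DMSO and 11.03 and 10.45 under GSI in WT, and 12.40 and 12.14 under DMSO and 10.51 and 10.44 under GSI in IkL/L. Its treatments were clearly apart, and it fell by 1.61 ± 0.16 (limma, adjusted p = 0.000429). Nop56, the partner of Nop58 in the particle, fell by 1.63 ± 0.14.

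The box H/ACA core, which makes pseudouridine and also binds telomerase RNA, fell in 4 of 4 genes. Gar1, encoding a small core protein, was at 11.43 and 10.87 under DMSO and 10.14 and 9.02 under GSI in WT, and 11.59 and 11.06 under DMSO and 9.35 and 8.98 under GSI in IkL/L, with no overlap between treatments. It fell by 1.87 ± 0.27 (3.65-fold; limma, adjusted p = 0.00186), much like Dkc1, which encodes the pseudouridine synthase dyskerin (-1.87 ± 0.18), and Nhp2 (-1.42 ± 0.17). Nop10, encoding the smallest core protein, was at 12.61 and 12.51 under DMSO and 12.15 and 12.21 under GSI in WT, and 12.70 and 12.61 under DMSO and 11.98 and 12.06 under GSI in IkL/L. Its replicates differed little and its treatments did not overlap, and it fell by 0.51 ± 0.07 (1.42-fold; limma, adjusted p = 0.00166). A second probe set for Nop10 gave -1.28, so the size of its change depends on the probe set.

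Small subunit assembly had 12 of 13 genes that fell, with a median log2 change of -1.36. Pno1, encoding a late assembly factor that binds the 3' end of the 18S rRNA precursor, was at 10.30 and 9.77 under DMSO and 8.66 and 7.55 under GSI in WT, and 10.17 and 9.83 under DMSO and 7.91 and 7.50 under GSI in IkL/L. Its GSI arrays were more than 1 log2 unit below its DMSO arrays, and it fell by 2.11 ± 0.26 (4.33-fold; limma, adjusted p = 0.00102). Ddx10, a helicase gene, had the smallest change of the group. It was at 10.16 and 9.74 under DMSO and 9.63 and 9.16 under GSI in WT, and 10.21 and 10.18 under DMSO and 9.06 and 8.91 under GSI in IkL/L. The closest arrays of the opposite treatments were both from WT, and the change of -0.88 ± 0.15 passed (limma, adjusted p = 0.00474) but was lost with the GAPDH covariate (-0.52, adjusted p = 0.0932).

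Among the other small subunit genes the largest falls were those of Bysl, which encodes the assembly factor bystin (-1.96 ± 0.25), and Wdr75 (-1.58 ± 0.17), a protein of the first complex to bind the growing precursor. Utp20, a large scaffold protein, fell by 1.52 ± 0.11, Tsr1, a GTPase-like late factor, by 1.46 ± 0.14, and Rrp9, a protein of the U3 snoRNP, by 1.42 ± 0.25. Heatr1 (-1.36 ± 0.12), Utp15 (-1.21 ± 0.21), Wdr43 (-1.19 ± 0.16), Imp4 (-1.08 ± 0.21) and Nop14 (-0.93 ± 0.17) completed those that fell. Of these, Rrp9, Utp15, Imp4 and Nop14 did not pass with the GAPDH covariate.

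Rrp12 was the small subunit gene that did not pass on average, and it was singled out after its values were seen. It encodes a HEAT-repeat protein that takes part in export of pre-ribosomal particles. It was at 8.48 and 7.87 under DMSO and 8.71 and 7.24 under GSI in WT, and 8.34 and 8.11 under DMSO and 6.63 and 6.46 under GSI in IkL/L. In WT the first GSI array was the highest of all 8 and the treatments overlapped, whereas in IkL/L both GSI arrays were more than 1 log2 unit below both DMSO arrays. The average change was -0.94 ± 0.31 (limma, adjusted p = 0.0607), made of -0.20 ± 0.43 in WT (adjusted p = 0.863) and -1.68 ± 0.43 in IkL/L (adjusted p = 0.0328). The difference of the genotypes' responses was -1.48 ± 0.61 and did not pass (adjusted p = 0.812).

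Large subunit assembly fell in 16 of 16 genes, with a median log2 change of -1.45. Ftsj3, encoding a methyltransferase-like processing factor, was at 8.87 and 8.42 under DMSO and 7.22 and 6.08 under GSI in WT, and 8.69 and 8.53 under DMSO and 6.65 and 6.17 under GSI in IkL/L. All GSI arrays were over 1 log2 unit lower than all DMSO arrays, and it fell by 2.10 ± 0.26 (4.28-fold; limma, adjusted p = 0.00102). Pes1, Bop1 and Wdr12 encode the 3 proteins of the PeBoW complex, which is needed for maturation of the large subunit rRNAs. Pes1 was at 10.93 and 10.31 under DMSO and 10.23 and 9.19 under GSI in WT, and 10.87 and 10.32 under DMSO and 9.73 and 9.75 under GSI in IkL/L. Its lowest DMSO array was only just above its highest GSI array, and the change of -0.88 ± 0.25 passed narrowly (limma, adjusted p = 0.0385). It was lost on leaving out single arrays, and with the GAPDH covariate the value changed sign (0.044, adjusted p = 0.897). Bop1 fell by 1.69 ± 0.23 and Wdr12 by 0.88 ± 0.17; Wdr12 was lost with the GAPDH covariate.

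Grwd1, encoding a WD-repeat histone-binding protein of the nucleolus, fell by 2.01 ± 0.26, and Gnl3, which encodes the nucleolar GTPase nucleostemin, by 1.95 ± 0.14. Nop16 (-1.74 ± 0.33), Rrp1b (-1.64 ± 0.18), Ppan (-1.48 ± 0.14), Nop2 (-1.46 ± 0.16), Nip7 (-1.44 ± 0.16) and Ebna1bp2 (-1.41 ± 0.15) followed; Nop2 encodes an rRNA methyltransferase. Rrs1, needed for the 5S particle to join the subunit, fell by 1.32 ± 0.14, Wdr74 by 1.29 ± 0.30, and the helicase genes Ddx18 and Ddx56 by 1.25 ± 0.15 and 1.23 ± 0.34. Wdr74 and Ddx56 were, with Odc1 and Pes1, the 4 of the 46 calls that were lost in at least 1 fit leaving out an array. The other 42 passed in all 8 of those fits. Nop16, Wdr74 and Ddx56 also did not pass with the GAPDH covariate.

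Both genotypes lost expression of these genes. In IkL/L, 43 of the 48 fell (9.09% of all genes fell), with a median log2 change of -1.69. In WT, 31 fell (4.16% of all genes), with a median of -1.25. The 31 genes that fell in WT also fell in IkL/L, where 3.89% of all genes fell in both. Srm fell by 2.56 ± 0.32 in WT (limma, adjusted p = 0.0093) and changed by -3.67 ± 0.32 in IkL/L (adjusted p = 0.000798). Nolc1 changed by -2.09 ± 0.30 in WT and by -2.71 ± 0.30 in IkL/L, and Lyar by -1.84 ± 0.16 and -2.56 ± 0.16, and all 4 of these passed. The genes that did not pass in IkL/L were Odc1, Polr1c, Pes1, Wdr74 and Ddx56. With the GAPDH covariate 32 of the 48 fell in IkL/L (6.79% of all genes), with a median of -1.19. In WT 24 fell with it (4.92% of all genes), with a median of -0.88.

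The count of calls in WT depended on single arrays. In each fit of this paragraph the count over all genes tested moved in the same direction as that of the 48. GSI was below DMSO on both arrays against both in 47 of the 48 genes in WT (19.8% of all genes) and in 47 in IkL/L (35.9%). Without WT DMSO 1, however, limma called 0 of the 48 in WT, with 35 at an unadjusted p below 0.05. It called 15 without WT DMSO 2, 16 without WT GSI 2, 17 without IkL/L DMSO 1, 18 without IkL/L DMSO 2 and 39 without WT GSI 1. A fit to the 4 WT arrays alone called 1 of the 18193 genes tested and 0 of the 48, with 41 of the 48 at an unadjusted p below 0.05. In IkL/L the count was 25 without IkL/L DMSO 1 and 27 without IkL/L GSI 2.

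Replicates differed along the same line as the treatments, most of all in WT. WT DMSO 1 was above WT DMSO 2 in 48 of 48 genes, by a median of 0.47 log2 units, and WT GSI 1 was above WT GSI 2 in 43, by a median of 0.44. In IkL/L replicate 1 was higher in 44 genes under DMSO (median 0.23) and in 32 under GSI (median 0.14). Over all genes the medians of these replicate differences lay between -0.051 and 0.09. The closest pair of opposite treatments in WT, chosen after the values were seen, was WT GSI 1 and WT DMSO 2, whose GAPDH 3' minus 5' differences were 2.20 and 2.12. Their stromal marker means were 7.86 and 6.45. Between them 47 of the 48 genes were lower on the GSI array, Rrp12 being the exception, with a median of -0.74, while over all genes the median was 0.099 and 37.5% were lower. It is a pair of single arrays, with no test. The other 3 WT pairs had medians between -1.14 and -1.66, and the 4 IkL/L pairs between -1.51 and -1.83.

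**Figure D3:**
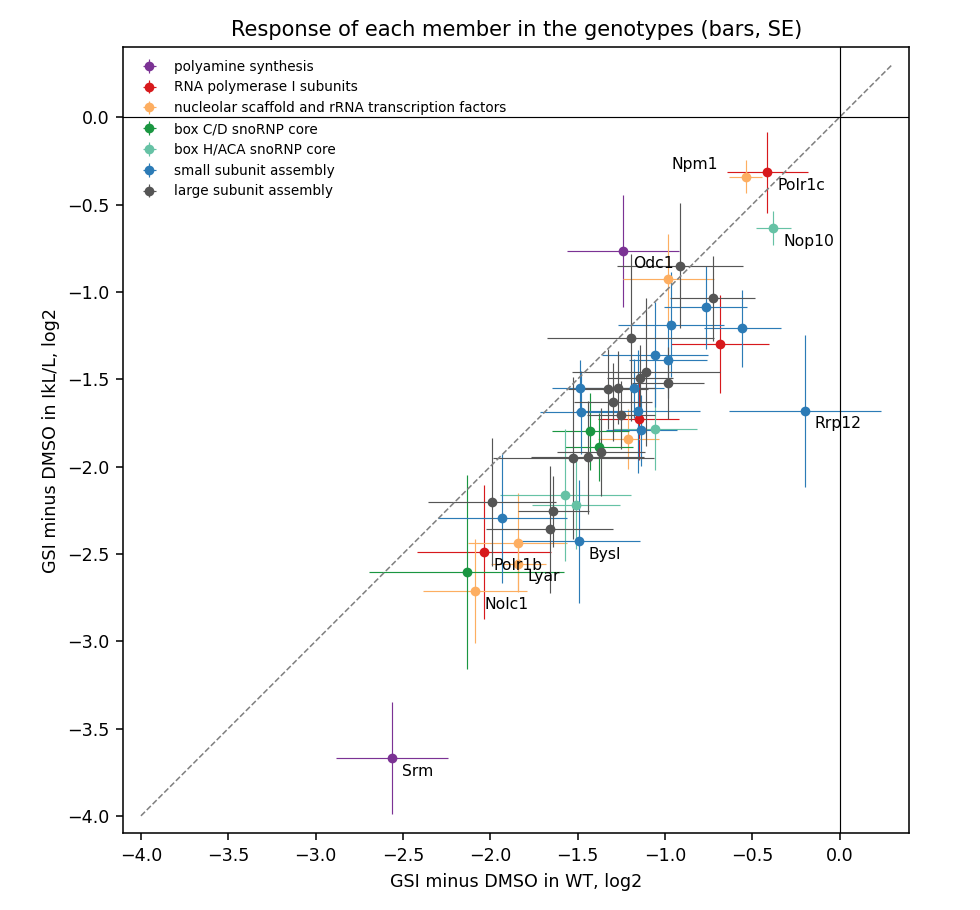
Log2 change with GSI in WT (horizontal axis) and in IkL/L (vertical axis) for each of the 48 genes, with bars giving the SE of each and the diagonal marking equal change. Of the 48 points, 43 lie below the diagonal; Rrp12 lies farthest below it and Odc1 farthest above.

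How far Ikaros deficiency altered the response was tested as the difference of the responses. For none of the 48 genes did this difference pass in limma (0 of 48; 0.044% of all genes passed), and 4 had an unadjusted p below 0.05, against 5.99% of all genes. The response was more negative in IkL/L for 43 of the 48 genes, which was so for 59.4% of all genes, with a median difference of -0.44 against -0.061. Both values depended on single WT arrays. Without WT DMSO 2 the median was -0.12, with 35 genes more negative in IkL/L and 1 at an unadjusted p below 0.05, and without WT GSI 1 it was -0.26, with 34. Without WT DMSO 1 it was -0.72 and without WT GSI 2 it was -0.71, with 13 at an unadjusted p below 0.05 in each. Without IkL/L DMSO 1 the number at an unadjusted p below 0.05 was 0, without IkL/L GSI 2 it was 2, and with the stromal covariate it was 15. The 95% intervals, without adjustment for the number of genes, had a median half-width of 0.81 log2 units and included 0 for 44 genes. The 4 that did not were Srm (-2.15 to -0.06), Lyar (-1.23 to -0.21), Mybbp1a (-1.20 to -0.07) and Rrp12 (-2.89 to -0.07), and the lowest adjusted p of these was 0.672, for Lyar. The 5 genes whose response was less negative in IkL/L were Odc1 (0.47 ± 0.45), Npm1 (0.20 ± 0.13), Polr1c (0.10 ± 0.33), Pes1 (0.06 ± 0.51) and Ncl (0.06 ± 0.37). Differences of the size of the median would not be resolved by these intervals for most genes.

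The genotypes were also compared within each treatment. Under DMSO 0 of the 48 genes differed between IkL/L and WT (limma; 1.74% of all genes did), with 2 at an unadjusted p below 0.05 (10.2% of all genes), and the median difference was 0.19. That median was -0.044 without WT DMSO 2, 0.084 without IkL/L DMSO 1, 0.29 without IkL/L DMSO 2, 0.33 with the GAPDH covariate and 0.42 without WT DMSO 1, and 20 genes had an unadjusted p below 0.05 without both WT arrays numbered 1. Under GSI again 0 differed (1.46% of all genes), with 2 at an unadjusted p below 0.05 (10.7%), and the median was -0.225. It was 0.0016 without WT GSI 1, -0.0087 with the GAPDH covariate and -0.47 without WT GSI 2, where 13 genes had an unadjusted p below 0.05. The direction of the median between genotypes thus depended on 1 WT array under either treatment. Under DMSO both IkL/L arrays lay above both WT arrays in 12 genes (22.4% of all genes) and below them in 1 (17.4%). Under GSI they lay below in 16 (23.1%) and above in 1 (14.0%). By their group means, 34 of the 48 genes were higher in IkL/L under DMSO and lower under GSI, a pattern found in 30.3% of all genes. This count was 15 without WT DMSO 2, 22 without WT GSI 1 and 25 with the GAPDH covariate. The share of all genes is not given for the alternative fits of this paragraph and the one before.

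Genes beyond the 48 show how far the change reached. Of 101 other ribosome biogenesis genes, 70 fell and 2 rose, with a median log2 change of -0.82. Urb1, a large nucleolar protein of large subunit assembly, fell by 1.39 ± 0.12 (limma, adjusted p = 0.000308), and Noc2l, encoding a nucleolar complex protein of the same pathway, by 1.66 ± 0.15. The 2 that rose, named after their values were seen, were Ddx52 (0.54 ± 0.12) and Nop53 (0.42 ± 0.11). Of 14 genes of the RNA exosome and its cofactors, the nuclease that trims rRNA precursors, 13 fell, with a median of -1.04. They included Dis3, a catalytic subunit (-1.82 ± 0.16), and Exosc8, a ring subunit (-1.17 ± 0.11).

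Most genes of the ribosome's own proteins did not pass. Of 43 cytosolic ribosomal protein genes measured, out of 77 listed, 5 fell and 3 rose, and the median log2 change was -0.009, close to that of all genes. Most of these probe sets were near the top of the scale: the median of their mean levels was 13.52, where the highest value of any gene tested was 14.24. Of the 34 with a mean level above 12, a level chosen after the values were seen, 1 fell and 2 rose, and of the other 9, 4 fell and 1 rose, with a median of -0.19. How far a change could be seen near the top of the scale was not tested. The 2 with the lowest p were Rpl14 (-1.22 ± 0.14) and Rps25 (-1.10 ± 0.13). Many ribosomal protein genes have near-identical processed copies in the genome, so single values are uncertain. These lists share the same arrays as the 48 genes, and they were drawn up with earlier results known.

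**Figure D4:**
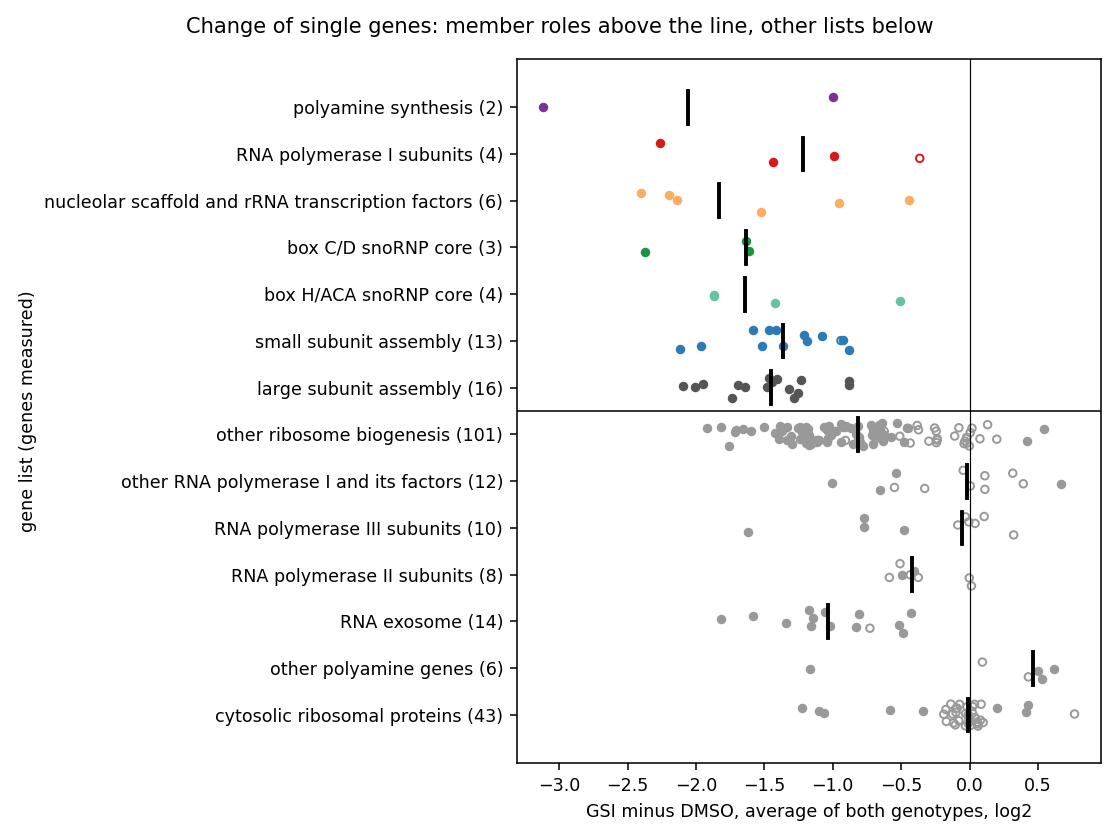
Average log2 change with GSI (horizontal axis) of each gene, as points, in the 7 roles of the 48 genes and in the other gene lists (vertical axis, with the number of genes measured). The points of the member roles and of the RNA exosome are all left of 0, while the ribosomal protein genes and the other RNA polymerase I genes gather around it.

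Myc moved in the same direction with more spread. It had log2 levels of 10.79 and 10.48 under DMSO and 9.49 and 8.57 under GSI in WT, and 10.79 and 10.50 under DMSO and 8.09 and 6.14 under GSI in IkL/L. The treatments did not overlap, and the replicates under GSI lay far apart, most of all in IkL/L. It fell by 2.57 ± 0.40 on average (limma, adjusted p = 0.0028) and changed by -3.53 ± 0.57 in IkL/L (adjusted p = 0.005), while the WT change of -1.61 ± 0.57 did not pass (adjusted p = 0.15). The difference of its responses was -1.92 ± 0.80 (adjusted p = 0.82).

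The size of a change depended on the probe set. Other probe sets existed for 32 of the 48 genes, 48 probe sets in all. Of these 34 fell, 0 rose and 1, of Wdr12, had a value above 0. The 39 with a mean level above the median of all probe sets (5.69) had 31 that fell and a median log2 change of -1.21. The 9 at or below that level had 3 that fell and a median of -0.27. Among brighter ones the values departed most for Nip7 (-0.05 against -1.44), Wdr12 (0.14 against -0.88) and Bop1 (-0.67 against -1.69). Rrs1 (-2.23 against -1.32), Polr1a (-0.57 against -1.44), Nop10 (-1.28 against -0.51) and Nhp2 (-2.19 against -1.42) followed. Next came Grwd1 (-1.28 against -2.01), Pes1 (-1.58 against -0.88) and Imp4 (-0.40 against -1.08). All were named after the values were seen. Of the 48 chosen probe sets, 8 carry the suffix of probe sets that can match several transcripts of related genes and 2 that of probe sets that can cross-hybridise, so for those genes signal from similar sequences could be included.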

How the data were processed

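Affymetrix mouse arrays were hybridised with RNA labelled in 2 cycles from 15 to 100 ng, as the labels state; the amounts are not tied to samples there. The deposited values are log2 values the authors made with RMA, per the submitters' processing notes; its version is not given in the sources used here. Of 45101 probe sets, 34945 name 1 gene, giving 18193 genes. Linear models of the 4 groups were fitted to all 8 arrays in limma 3.58.1 (R 4.3.3), with a mean-variance trend in eBayes, 4 residual and 4.11 prior degrees of freedom. Tests were two-sided and adjusted over all genes by Benjamini-Hochberg; calls are at an adjusted p below 0.05. Errors are moderated standard errors, and the fit was tested on simulated data. In each role, the genes with the largest and smallest average change, Srm, Odc1 and the RNA polymerase I subunits are given on every array; from each other list the 2 genes with the lowest p are named; Myc, Ikzf1 and Dtx1 are always given. The members, roles, lists and alternatives were chosen with earlier results of these data known. Python 3.11.15 was used with numpy 2.4.6, pandas 2.3.3 and matplotlib 3.10.9.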

Additional observations from a re-analysis of the deposited data

How the results depend on the processing

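The 46 members that fell on average became 42 to 47 on leaving out each array in turn, and 32 with the GAPDH covariate, 38 with a 2-fold minimum and 45 to 48 under the other alternatives. The WT count of 31 became 0 to 39 on leaving out each array, 19 without both WT arrays numbered 1 and 0 in a fit to the WT arrays alone. The IkL/L count of 43 became 25 to 47 on leaving out each array. For the genotypes under GSI the count of 0 became 0 to 1 on leaving out each array; it was 1 with the stromal covariate (Rrp12), 1 with the GAPDH covariate (Odc1) and 1 without both WT arrays numbered 1 (Odc1). The cause was not tested. The average of Pes1 reversed with the GAPDH covariate (0.044). Centring arrays on their medians moved the all-gene median in IkL/L to -0.104.

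With the replicate number as a block, 47 members fell on average, 43 in WT and 46 in IkL/L, and 1 differed under GSI (Rrp12, -1.43). Deviations of same-numbered arrays correlated at 0.56 to 0.71 among WT DMSO, WT GSI and IkL/L DMSO and at -0.11 to 0.03 between those and IkL/L GSI, so the numbers do not pair the samples throughout. With 2 arrays a group, one array can decide a call, and RMA scaling hides a change shared by all genes.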
